A study of Mus musculus with 12 samples.

Results

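The mouse Hox genes lie in 4 clusters, HoxA to HoxD, and genes at matching positions of different clusters form paralog groups numbered 1 to 13. The 29 genes described here are the Hox genes of paralog groups other than 9, 10 and 11, together with Hoxb9, which was not mutated in this study. They were selected by gene symbol, with earlier results of these data known. All 29 were found among the 36186 genes of the deposited table: 7 of HoxA, 10 of HoxB, 6 of HoxC and 6 of HoxD. They are called the members below.

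The study sequenced RNA of whole kidneys from mouse embryos at E18.5, on a mixed background, to ask what the loss of several neighbouring Hox genes does to gene expression in the kidney. There were 12 libraries in 4 groups of 3. Wt stands for wild type, AkCh for Hoxa9,10,11-/- Hoxc9,10,11+/-, AhCk for Hoxa9,10,11+/- Hoxc9,10,11-/-, and AkCk for Hoxa9,10,11-/- Hoxc9,10,11-/-. Libraries are named as in the labels: Wt_30, Wt_37 and Wt_55, AkCh_20, AkCh_31 and AkCh_33, AhCk_38, AhCk_110 and AhCk_115, and AkCk_24, AkCk_27 and AkCk_29. The number is taken to be that of the embryo, and p values measure the spread among these samples. The mutations are germline frameshifts, made by recombineering with a small deletion in the first exons of neighbouring genes of a cluster. Every cell of the kidney and of the embryo thus carried them. Besides the alleles with 3 mutated genes, the study made an allele with only Hoxa9 and Hoxa10 mutated. For AkCk, the text of the study describes the sequenced mutants as Hoxa9,10-/- with Hoxa11 +/- or +/+, whereas the labels give Hoxa9,10,11-/-, and nothing in the labels tells which animal is which. The text also says that embryos homozygous at all of these genes had no kidney that could be found at this stage, which goes against that label for a kidney library. The 3 AhCk libraries were made in sequencing run1646 and the other 9 libraries in run1008, so genotype and run cannot be told apart for AhCk. Total counts ran from 28616877 in AkCh_20 to 47067903 in AhCk_110.

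Hox genes encode homeodomain transcription factors that give cells positional identity along the body axes. In a cluster, genes near the 3' end (low paralog numbers) are switched on earlier and further towards the head than genes near the 5' end. In the kidney many Hox genes are transcribed in the nephron progenitors, the ureteric bud and the stroma, and the Hox11 genes are known to act in the mesenchyme that induces the bud.

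The mutated genes were looked at in every library as a check of the labels. Values are CPM, counts scaled to a common library size with TMM factors, and the order is always that in which the libraries were named above. Hoxa9 stood at 24.3, 24.3, 26.4; 40.8, 26.7, 27.1; 29.6, 32.0, 30.9; 26.5, 25.9, 24 CPM. Hoxa10 stood at 125, 152, 164; 153, 103, 107; 113, 104, 114; 100, 104, 112 CPM. Hoxa11 stood at 44.2, 52.6, 59.7; 43.2, 51.8, 52.2; 53.8, 61.5, 52.8; 37.1, 38.2, 52.9 CPM. All 3 Hoxa genes were thus transcribed in every mutant library. Hoxc9 read 11.4, 11.7, 15.6; 32.7, 11.7, 12.6; 9.16, 11.0, 13.9; 11.0, 10.5, 10.4 CPM. Hoxc10 read 50.2, 58.8, 66.9; 121, 45.3, 41.6; 32.1, 36.6, 51.6; 37.8, 29.1, 35.8 CPM. Hoxc11 read 1.56, 1.59, 1.83; 2.93, 1.57, 1.32; 1.12, 1.49, 2.01; 1.04, 0.892, 1.24 CPM. Counts per gene do not separate transcripts of the mutant allele from those of the intact one, so these levels cannot show which allele a library carried. By edgeR, Hoxa10 (log2 fold change -0.49, SE 0.11, adjusted p 0.027) and Hoxc10 (-0.78, SE 0.14, adjusted p 0.0127) were lower in AkCk than in Wt. The mutant Hoxc10 allele lacks part of its first exon, and the effect of this on the Hoxc10 count was not tested. The Hoxa10 call was lost without Wt_37 (adjusted p by edgeR 0.108), Wt_55 (0.0904), AkCk_24 (0.0942) or AkCk_27 (0.0736), and the Hoxc10 call without Wt_37 (0.0583). Of 9 alternative fits, 4 ended the Hoxa10 call and 3 the Hoxc10 call (adjusted p by edgeR up to 0.314 and 0.693). The unmutated Hoxd9, Hoxd10 and Hoxd11 genes did not pass, at log2 fold changes of 0.10, -0.02 and -0.17.

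All 6 defining kidney markers were present in every library. Pax2 ranged from 58.5 CPM in AkCk_27 to 165 CPM in AhCk_110 and AhCk_115, and the most abundant, Cdh16, from 345 CPM in AkCh_20 to 1030 CPM in AkCk_27. In AkCk against Wt, 4 of the 6 had log2 fold changes below 0 and 2 above, from -0.74 to 0.24. Only Lhx1 passed the threshold, as lower (-0.55, SE 0.13, adjusted p by edgeR 0.033), where 7.40% of all genes passed as lower. The median was -0.33 over the list and -0.01 over all genes. Xist was high in AkCh_31 and AkCh_33, AhCk_110, and AkCk_27 and AkCk_29 (60.1 to 336 CPM) and at most 0.138 CPM in the other 7 libraries, where the Y-linked gene Ddx3y read 54.2 to 93.6 CPM. By these genes all 3 Wt libraries were male, while each mutant group held both sexes.

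AkCh_20 stood apart from the other 11 libraries. On the leading principal component of all genes, which held 33% of the variance, it scored 91.7 while the others lay between -37.7 and 27.9. Its median Spearman rho to the other libraries of its own group was 0.948, against 0.970 to 0.994 elsewhere. It was the highest of the 12 libraries for 16 of the 23 members tested in every comparison, and its ratio to the mean of AkCh_31 and AkCh_33 ran from 0.785 for Hoxa6 to 3.89 for Hoxd12, with a median of 1.82. The 8 nephron markers summed to 1164 CPM in AkCh_20, against 3562 CPM in AkCh_31 and 3864 CPM in AkCh_33. The 10 cap mesenchyme markers summed to 746 CPM in AkCh_20, against 473 and 430 CPM in AkCh_31 and AkCh_33. Liver markers summed to 53.7, 34.4 and 7.41 CPM in AkCh_20, AkCh_31 and AkCh_33. Alb was the most abundant of them in AkCh_20 and AkCh_31, and Ttr in AkCh_33. The part of these differences in the AkCh results was not tested, and the main AkCh results are given with and without this library.

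In Wt kidneys the members differed widely in level. Compared per length, as CPM per kilobase of exon (RPKM), Hoxb8 (31.4 RPKM), Hoxd8 (30.9), Hoxb9 (29.5) and Hoxb7 (28.1) were the highest, and the ranges of each and the next in this order overlapped. Hoxb6 (17.0 RPKM), Hoxb3 (13.8) and Hoxb2 (12.7) followed, again with overlapping ranges. Hoxa5, at 7.92 RPKM, was the highest of HoxA, and Hoxc6, at 4.13 RPKM, had the highest mean of HoxC, with a range that overlapped those of Hoxc4 and Hoxc8. From Hoxb5 (5.25 RPKM) down to Hoxa4 (1.88 RPKM) the range of each of 13 members overlapped that of its neighbour, although members further apart in this order did not all overlap. Hoxc5 (0.964 RPKM), Hoxd1 (0.648 RPKM) and Hoxd13 (0.115 RPKM) were lower, each with a range apart from the next. The 8 most abundant members thus held 6 genes of HoxB, 1 of HoxD and 1 of HoxA. Summed over their members, HoxB stood at 362 ± 42.4 CPM in Wt (SD, n = 3), HoxD at 120 ± 8.51 CPM, HoxA at 49.4 ± 3.23 CPM and HoxC at 29.6 ± 5.35 CPM.

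**Figure D1:**
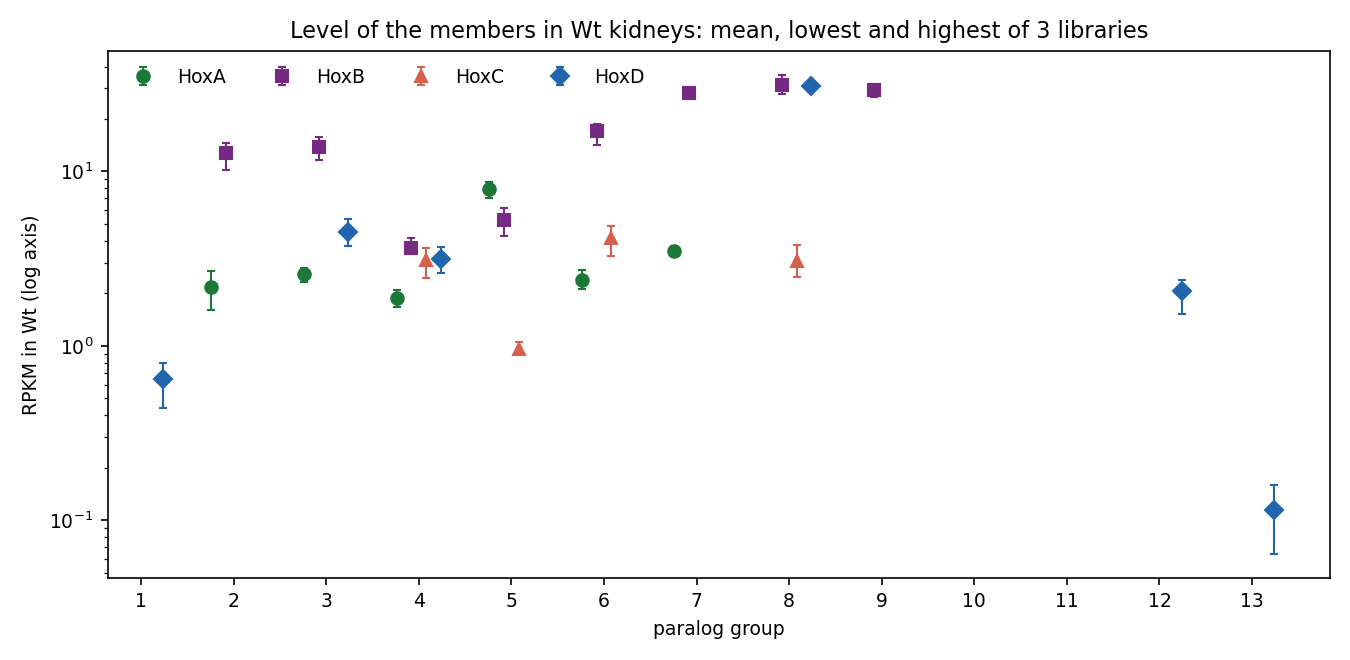
Level of the members in Wt kidneys by paralog group (horizontal axis) and cluster (marker), in RPKM on a log axis, as the mean with the lowest and highest of 3 libraries. Only members with counts in every Wt library are drawn, and Hoxb8, Hoxd8, Hoxb9 and Hoxb7 stand highest.

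The members of paralog group 13, Hoxc12, and Hoxb1 at the 3' end of HoxB were at or near 0. Hoxc12, which lies 15.9 kb beyond Hoxc11, had no count in any of the 12 libraries, which allows at most 0.116 CPM in AkCh_20 and 0.0614 to 0.0881 CPM in the others, at 3 counts per library. Hoxa13, 13 kb beyond Hoxa11, had 3 counts in all, at 0.0386 CPM in AkCh_20 and 0.0415 CPM in AhCk_115 and at 0 in the other 10 libraries. Both were at 0 in every Wt library, so only a gain could have been seen, and none beyond these counts was seen in the mutants. Hoxb13 had 6 counts over the 12 libraries, Hoxc13 had 9, Hoxb1 had 25 and Hoxd13 had 66. Those 6 members failed the filter on low counts in the comparisons of AkCk and AkCh, which left 23 of 29 members tested there. Hoxd13 passed that filter in AhCk against Wt, for 24 members tested, and missed the threshold (log2 fold change -0.71, 95% interval -1.92 to 0.51). Hoxd13 stood at 0.159, 0.300, 0.396 CPM in Wt, 0, 0.0482, 0 CPM in AkCh, 0.117, 0.266, 0.124 CPM in AhCk and 0.104, 0, 0.0550 CPM in AkCk. All 6 libraries of AkCh and AkCk thus lay below the 3 Wt libraries, at 0 to 4 counts each against 6 to 16, close to the floor of 3 counts. The share of all genes with this pattern was not computed. AkCh_31, AkCh_33, AkCk_27 and AkCk_29 were female and all Wt libraries male, and the part of sex was not tested.

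The comparison of AkCk with Wt asks what the mutant alleles of both clusters together do to the unmutated Hox genes. The clearest differences lay in the 3' part of HoxD, a cluster with no mutated gene in these animals. Hoxd3 fell to 0.315 and Hoxd4 to 0.275 of the Wt level, and Hoxa3 to 0.677, and Hoxb3 fell by 1.0 on the log2 scale. On the mutated HoxC cluster, Hoxc8 rose 1.66-fold and Hoxc5 1.71-fold. In whole tissue, fewer cells of a type and less RNA per cell cannot be told apart, for these and all following genes.

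Each gene was tested with edgeR (quasi-likelihood), and adjusted p values (Benjamini and Hochberg, over every gene tested) were held against a threshold of 0.05. In AkCk against Wt 6 of 23 members passed, where 13.7% of all 15839 genes passed. Of these, 4 were lower (7.40% of all genes) and 2 higher (6.31% of all genes). At an unadjusted p below 0.05 there were 12 members, against 32.4% of all genes: 4 higher (15.6% of all genes) and 8 lower (16.8%). Every AkCk library lay above every Wt library for 4 members, against 17.2% of all genes, and below every Wt library for 7 members, against 20.9% of all genes. The median log2 fold change was -0.20 over the 23 members and -0.01 over all genes. The share of members past the threshold was thus about 2 times the share of all genes, in a comparison where many genes changed. The count was 3 members without Wt_37 (3.35% of all genes), 3 without AkCk_24 (4.95%) and 3 in a fit with all 9 libraries of run1008 (4.30%), while DESeq2 called 9 (21.3%), so the count over all genes moved as well.

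Hoxd3 and Hoxd4, neighbours on chromosome 2, encode homeodomain factors known for roles in the hindbrain and the cervical vertebrae. Hoxd3 (gene ID 15434) stood at 15.7, 18.2, 22.4 CPM in Wt, 19.7, 10.9, 11.9 CPM in AkCh, 19.3, 19.2, 24 CPM in AhCk and 5.59, 5.73, 6.43 CPM in AkCk. Hoxd4 (gene ID 15436) stood at 7.72, 9.22, 10.9 CPM in Wt, 8.34, 5.55, 5.54 CPM in AkCh, 11.0, 10.1, 10.4 CPM in AhCk and 2.32, 2.27, 3.08 CPM in AkCk. For both genes the 3 AkCk libraries were the lowest of the 12, with a wide gap to every other library, and the AhCk libraries lay within or just above the Wt range. AkCh_31 and AkCh_33 lay between, below all Wt and above all AkCk libraries. In AkCk against Wt, edgeR gave Hoxd3 a log2 fold change of -1.67 (SE 0.16, adjusted p 0.00176, n = 3 per group). Hoxd4 followed at -1.86 (SE 0.20, adjusted p by edgeR 0.00288). Both calls held in all 9 alternative fits and without each of the 6 libraries in turn. AkCk_24, a male like the Wt libraries, read 5.59 CPM for Hoxd3 and 2.32 CPM for Hoxd4, as low as the 2 female AkCk libraries. Within AkCh, the male AkCh_20 read 19.7 CPM for Hoxd3 and 8.34 CPM for Hoxd4, above the female AkCh_31 and AkCh_33. The part of sex in this difference within AkCh was not tested. The genes are not independent measurements: they share 388 exon bases on the same strand in the GENCODE annotation, 9.26% of Hoxd3 and 13.2% of Hoxd4, and Hoxd3os1 covers 347 of their bases on the opposite strand. The strand used in counting was not stated, so reads of overlapping genes cannot be told apart.

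**Figure D2:**
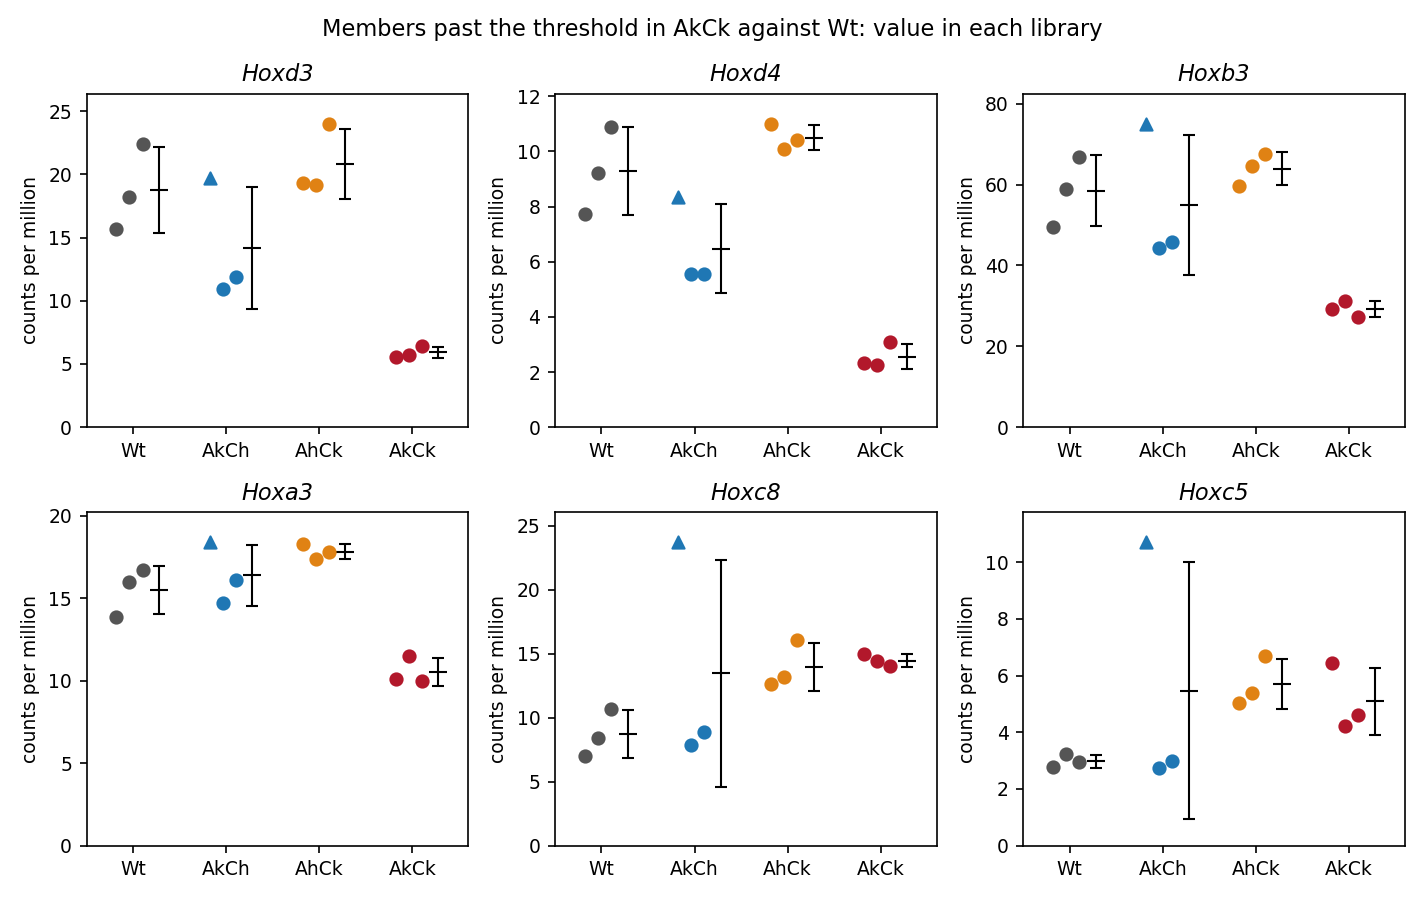
Value of the 6 members past the threshold in AkCk against Wt, in CPM, with 1 point per library and the mean and SD of each group of 3 in black; the triangle is AkCh_20. Hoxd3, Hoxd4, Hoxb3 and Hoxa3 are lowest in AkCk, and Hoxc8 and Hoxc5 are higher in AkCk and AhCk than in Wt.

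The starts of Hoxd3, Hoxd4 and Hoxa3 are shown because these members fell together in AkCk and have entries in the RefSeq promoter table. Of the 29 members, 16 matched that table (build GRCm38.p6). Each window runs from 250 bases before to 50 bases after the annotated start, 5' to 3' on the strand of the gene: chr2:74711743-74712042 on the plus strand for Hoxd3, chr2:74721728-74722027 on the plus strand for Hoxd4, and chr6:52213018-52213317 on the minus strand for Hoxa3. Capitals mark matches, on either strand, to TTTATNG, a motif of posterior Hox proteins, or to TGATNNAT, a composite motif of Pbx and Hox proteins.
Hoxd3: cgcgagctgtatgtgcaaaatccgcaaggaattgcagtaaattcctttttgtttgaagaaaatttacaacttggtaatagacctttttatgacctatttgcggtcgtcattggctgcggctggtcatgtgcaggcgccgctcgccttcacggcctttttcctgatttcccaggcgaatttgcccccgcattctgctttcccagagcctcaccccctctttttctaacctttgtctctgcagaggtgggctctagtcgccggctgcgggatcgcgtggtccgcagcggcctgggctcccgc
Hoxd4: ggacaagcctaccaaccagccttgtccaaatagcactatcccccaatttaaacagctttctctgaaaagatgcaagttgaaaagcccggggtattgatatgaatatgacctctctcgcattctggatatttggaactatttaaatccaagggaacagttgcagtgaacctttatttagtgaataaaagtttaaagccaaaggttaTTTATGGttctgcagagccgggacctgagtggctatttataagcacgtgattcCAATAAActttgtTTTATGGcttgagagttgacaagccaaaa
Hoxa3: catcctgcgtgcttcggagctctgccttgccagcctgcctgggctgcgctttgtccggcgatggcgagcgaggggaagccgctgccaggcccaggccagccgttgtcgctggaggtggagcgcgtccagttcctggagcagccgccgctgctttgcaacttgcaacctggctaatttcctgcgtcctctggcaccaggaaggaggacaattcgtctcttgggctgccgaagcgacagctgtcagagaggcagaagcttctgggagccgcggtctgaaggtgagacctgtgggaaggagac
Hoxd4 held 3 matches to TTTATNG and none to TGATNNAT, and the windows of Hoxd3 and Hoxa3 held no match to either. No match to one motif overlapped a match to the other in the member windows. TTTATNG occurred in 10.9% of all 32851 windows of 300 bases and in 2 of the 16 member windows (Hoxd4 and Hoxb8). TGATNNAT occurred in 8.85% of all windows and in 3 of the 16 member windows. These matches describe the letters of the windows and were not tested for binding. Hoxb3, Hoxc5 and Hoxc8 had no entry.

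The other paralog group 3 genes fell as well. Hoxb3 (gene ID 15410, chromosome 11), known with its paralogs for roles in neck and hindbrain structures, stood at 49.5, 59.0, 66.9 CPM in Wt, 75, 44.2, 45.9 CPM in AkCh, 59.6, 64.6, 67.6 CPM in AhCk and 29.2, 31.3, 27.3 CPM in AkCk. Hoxa3 (gene ID 15400, chromosome 6), required for thymus and parathyroid development, stood at 13.9, 16.0, 16.7 CPM in Wt, 18.4, 14.7, 16.1 CPM in AkCh, 18.3, 17.4, 17.8 CPM in AhCk and 10.1, 11.5, 10.0 CPM in AkCk. For each gene the AkCk libraries were the lowest 3 of the 12 and did not overlap any other group. In AkCk against Wt, edgeR gave Hoxb3 a log2 fold change of -1.0 (SE 0.12, adjusted p 0.00415). Hoxa3 had -0.56 (SE 0.12, adjusted p by edgeR 0.0248). The Hoxb3 call was lost only when Xist level was added as a covariate to the 9 libraries of run1008 (adjusted p by edgeR 0.0675, log2 fold change -0.74). The Hoxa3 call was lost in 3 of the 9 alternatives, with adjusted p up to 0.113 by edgeR, and without Wt_37 (0.105), Wt_55 (0.0966), AkCk_24 (0.0843) or AkCk_29 (0.0586). Hoxb3os covers 2250 of the 4251 exon bases of Hoxb3 on the opposite strand, and Hoxaas2 and Hoxaas3 cover 800 of 6014 exon bases of Hoxa3, so antisense reads cannot be told apart there. All 3 members of paralog group 3 were thus lower and past the threshold in AkCk, where 7.40% of all genes passed as lower. Their median log2 fold change was -1.0, beside -0.01 for all genes. Of the 4 members of paralog group 4, Hoxd4 passed, and the log2 fold changes ran from -1.86 to 0.07 with a median of -0.22.

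Within HoxD the fall did not extend to every member. Hoxd8, the most abundant of the cluster, stood at 86.6, 79.8, 88.1 CPM in Wt and 93.4, 111, 92.6 CPM in AkCk, with a log2 fold change of 0.22 (95% interval 0.01 to 0.43, adjusted p by edgeR 0.136). Hoxd1, at the 3' end, had -0.82 (95% interval -1.56 to -0.08, adjusted p by edgeR 0.122). Hoxd12 stood at 3.85, 5.63, 6.09 CPM in Wt and 2.25, 0.994, 3.46 CPM in AkCk. Its groups did not overlap, and its log2 fold change of -1.22 (SE 0.41) missed the threshold (adjusted p by edgeR 0.0853), although it passed without AkCk_29 and by DESeq2. In all 12 libraries together the HoxD sum was between 105 and 129 CPM, since Hoxd8 makes up most of it.

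Of the 4 HoxC genes 3' of the mutated ones, Hoxc8 and Hoxc5 were higher in AkCk than in Wt. Hoxc8, which lies 6.09 kb from Hoxc9 and is known for roles in the thoracic skeleton and motor neurons, stood at 7.03, 8.44, 10.7 CPM in Wt, 23.7, 7.86, 8.86 CPM in AkCh, 12.6, 13.2, 16.1 CPM in AhCk and 15, 14.4, 14 CPM in AkCk. Hoxc5, 29.6 kb from Hoxc9, stood at 2.76, 3.23, 2.94 CPM in Wt, 10.7, 2.73, 2.98 CPM in AkCh, 5.02, 5.40, 6.68 CPM in AhCk and 6.43, 4.23, 4.62 CPM in AkCk. For both genes the 3 AkCk libraries lay above the 3 Wt libraries, against 17.2% of all genes. The 3 AhCk libraries did so as well, against 12.2% of all genes, but genotype and run cannot be told apart for AhCk. AkCh_31 and AkCh_33, heterozygous for the mutant Hoxc alleles, lay at the Wt level, and AkCh_20 was the highest of the 12 libraries. In AkCk against Wt, edgeR gave Hoxc8 a log2 fold change of 0.73 (SE 0.16, adjusted p 0.027) and Hoxc5 one of 0.77 (SE 0.20, adjusted p 0.0457). Neither call held throughout: Hoxc8 was lost without Wt_37 (adjusted p by edgeR 0.103), AkCk_24 (0.0851), AkCk_27 (0.0654) or AkCk_29 (0.0507), and in the fits of all 12 libraries and of the 9 libraries of run1008 (0.25 and 0.341). Hoxc5 was lost without each of the 6 libraries in turn (adjusted p by edgeR 0.0533 to 0.137) and in 4 of 9 alternatives, up to 0.433. Over the alternatives its log2 fold change ran from 0.71 to 1.54, the highest with Xist level as a covariate, and that of Hoxc8 from 0.67 to 1.31. Hoxc6 stood at 7.88, 10.3, 11.7 CPM in Wt and 17.1, 14.4, 12.7 CPM in AkCk, without overlap, at a log2 fold change of 0.56 (95% interval 0.16 to 0.97, adjusted p by edgeR 0.0712). Hoxc4 differed by -0.02 (95% interval -0.50 to 0.45). Hoxc5 and the mutated Hoxc10 share 166 exon bases on the same strand, 5.37% of Hoxc5, and Hoxc10 itself was lower in AkCk.

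The 3' neighbour of the mutated Hoxa genes did not pass. Hoxa7, 4.52 kb from Hoxa9, stood at 10.8, 9.36, 10.0 CPM in Wt, 11.9, 10.1, 10.2 CPM in AkCh, 12.4, 13.3, 10.8 CPM in AhCk and 11.0, 10.6, 10.8 CPM in AkCk. The AkCk and AkCh libraries lay within or close to the Wt range, and the log2 fold change in AkCk against Wt was 0.10 (95% interval -0.16 to 0.36). Apart from Hoxa3, the 5 other HoxA members tested ran from -0.23 to 0.10 and none passed. Hoxb9, the unmutated member of paralog group 9 in HoxB, stood at 68.3, 81.4, 78.0 CPM in Wt, 192, 60.5, 69.5 CPM in AkCh, 56.3, 81.4, 89.2 CPM in AhCk and 75.1, 57.1, 76.5 CPM in AkCk. Apart from AkCh_20 its groups overlapped, and its log2 fold change in AkCk against Wt was -0.13 (95% interval -0.42 to 0.16). All 8 HoxB members tested had log2 fold changes below 0, from -1.0 to -0.05 with a median of -0.29, and Hoxb3 alone passed. That common direction was not kept in every fit: with Xist level as a covariate, 16 of the 23 members had log2 fold changes above 0 in AkCk against Wt and the median over members was 0.12, against 6 of 23 and -0.20 without it.

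**Figure D3:**
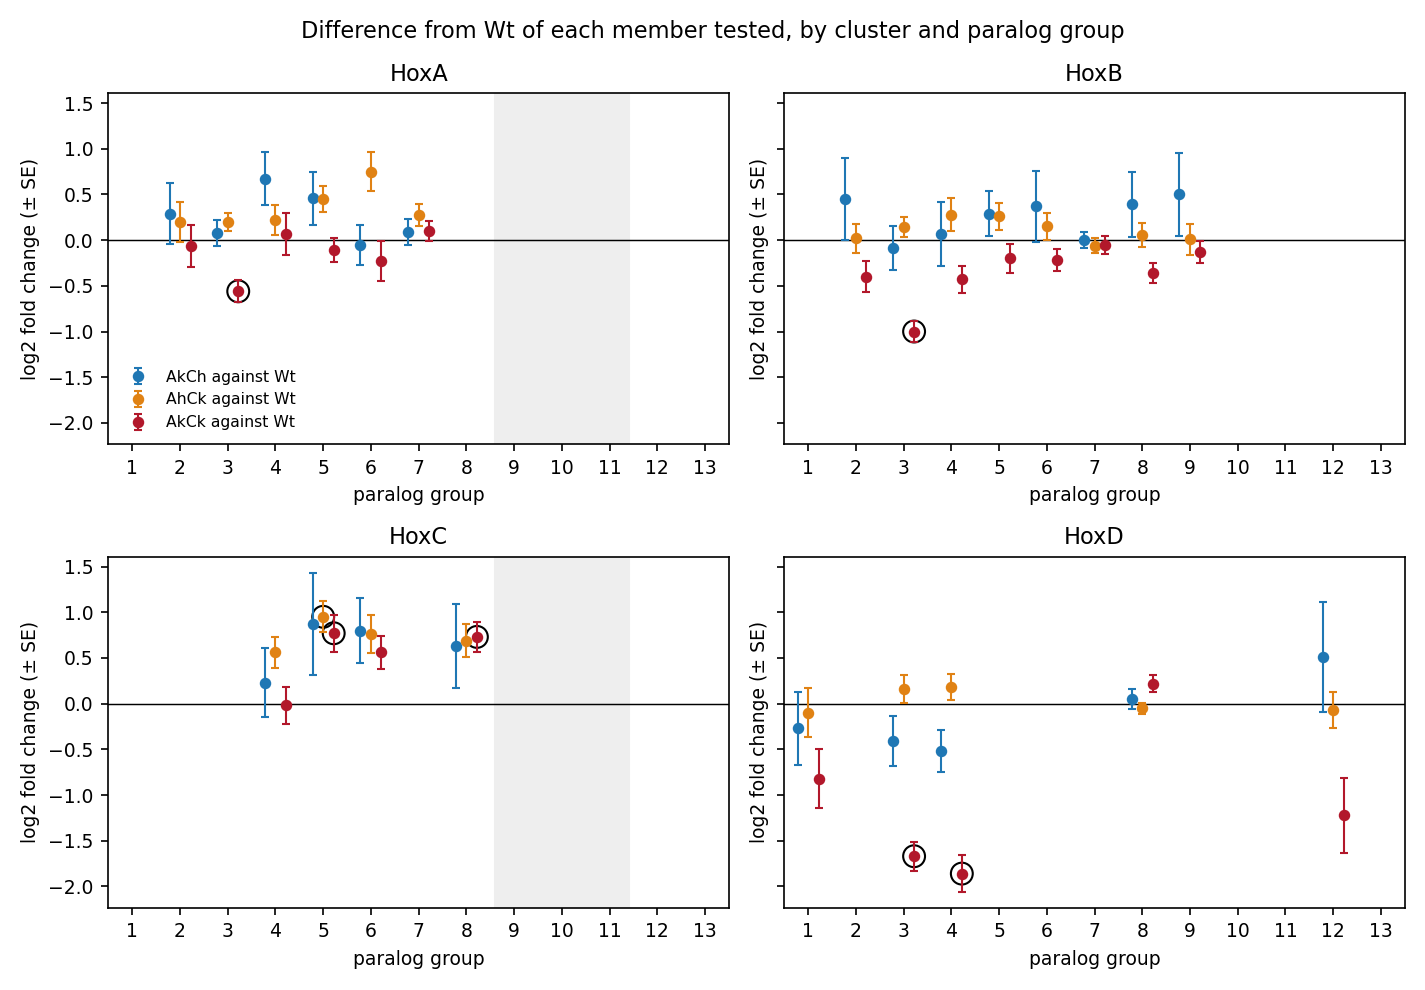
Log2 fold change (± SE) against Wt of each member tested in all comparisons, by paralog group and cluster, for AkCh, AhCk and AkCk, with 3 libraries per group; all 3 comparisons share the Wt libraries. Circled points passed the threshold, and shading marks the mutated genes of HoxA and HoxC.

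The comparison of AhCk with Wt asks about homozygous Hoxc and heterozygous Hoxa alleles, and genotype and sequencing run cannot be told apart in it. By edgeR 1 of 24 members passed, Hoxc5, where 2.36% of all 15902 genes passed and 0.836% passed as higher. No member passed as lower, against 1.53% of all genes. Hoxc5 was 1.93-fold higher, at a log2 fold change of 0.95 (SE 0.17, adjusted p by edgeR 0.0376). This call was lost without Wt_30 (adjusted p by edgeR 0.0567), Wt_37 (0.161), Wt_55 (0.151), AhCk_110 (0.143) or AhCk_115 (0.106), and in 3 of 7 alternatives, up to 0.48. Hoxc8 had 0.69 (95% interval 0.28 to 1.10, adjusted p by edgeR 0.0935), and DESeq2 called it (adjusted p 0.00855). Hoxc6 had 0.76 (95% interval 0.26 to 1.25, adjusted p by edgeR 0.11), and DESeq2 called it as well (adjusted p 0.0128). Hoxc4 had 0.56 (95% interval 0.15 to 0.97, adjusted p by edgeR 0.136). In all, 7 members had an unadjusted p below 0.05, against 21.1% of all genes, all 7 higher (9.88% of all genes) and none lower (11.2%), and DESeq2 called 5 members, against 8.23% of all genes. All 3 AhCk libraries lay above all 3 Wt libraries for 9 members, against 12.2% of all genes: the 4 HoxC members tested and 5 of the 6 HoxA members. None lay below, against 14.4% of all genes. The median log2 fold change was 0.72 over the 4 HoxC members, 0.25 over the 6 HoxA members, 0.10 over the 8 HoxB members and -0.06 over the 6 HoxD members, beside 0.01 for all genes. Hoxd3 had 0.16 (95% interval -0.20 to 0.52), Hoxd4 had 0.18 (95% interval -0.15 to 0.52) and Hoxb3 had 0.14 (95% interval -0.13 to 0.40). For Hoxd3, Hoxd4 and Hoxb3 these intervals exclude falls of the size estimated in AkCk.

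The comparison of AkCh with Wt asks about homozygous Hoxa and heterozygous Hoxc alleles. With AkCh_20 in the fit, edgeR called 0 of 23 members and 0% of all 15789 genes. At an unadjusted p below 0.05 there were 0 members, against 2.28% of all genes (0.817% higher and 1.46% lower), and neither DESeq2 (0.139% of all genes) nor limma (0.00633%) called a member. The AkCh libraries lay above all Wt libraries for 2 members (Hoxa4 and Hoxc6), against 3.59% of all genes, and below them for none, against 4.74%. Without AkCh_20 edgeR again called 0 members (0.0501% of all genes), and 5 of 24 had an unadjusted p below 0.05, against 11.4% of all genes. Both AkCh libraries of that fit were female and all Wt libraries male, so sex and genotype cannot be told apart in it. Hoxd3 then had a log2 fold change of -0.72 (95% interval -1.11 to -0.33, adjusted p by edgeR 0.431), against -0.41 (95% interval -1.05 to 0.24) with it. Hoxd4 had -0.75 (95% interval -1.16 to -0.33, adjusted p by edgeR 0.431), against -0.52 (95% interval -1.08 to 0.04) with it. Hoxc8 went from 0.63 to -0.06 and Hoxc5 from 0.87 to -0.07, so that the higher group means of these 2 genes in AkCh rested on AkCh_20. In 4 of the 23 members tested in every comparison (Hoxd3, Hoxd4, Hoxb3 and Hoxb4) AkCh_31 and AkCh_33 lay below all Wt libraries, against 17.0% of all genes, and in 2 (Hoxa4 and Hoxc6) above them, against 16.0%. Hoxd13, which passed the filter in the fit without AkCh_20, lay below them too, at a log2 fold change of -3.36 (95% interval -5.63 to -1.10, adjusted p by edgeR 0.431). That estimate comes from 2 counts in AkCh_31 and 0 in AkCh_33 and depends on the prior count.

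By the labels, AkCk and AkCh share the homozygous Hoxa alleles and differ in the dose of the mutant Hoxc alleles. By the text of the study they differ at Hoxa11 as well, and the share of each gene in a difference cannot be told apart. With AkCh_20 in the fit, edgeR called 0 of 23 members and 0% of all 15764 genes, while 5 members had an unadjusted p below 0.05, against 11.3% of all genes, all 5 lower (5.44% of all genes) and none higher (5.89%). DESeq2 called 4 members (Hoxd3, Hoxd4, Hoxa3 and Hoxb3), all lower in AkCk, where it called 3.51% of all genes, and limma called 0 members and 0% of all genes. Every AkCk library lay below every AkCh library for the same 4 genes, against 11.2% of all genes, and above for none, against 11.3%. Hoxd3 had a log2 fold change of -1.24 (95% interval -1.86 to -0.62, adjusted p by edgeR 0.209). Hoxd4 had -1.32 (95% interval -1.95 to -0.69, adjusted p by edgeR 0.189). Without AkCh_20, edgeR called 4 of 23 members, where 4.30% of all genes passed. Of these Hoxd3 (-0.93, SE 0.14, adjusted p by edgeR 0.0237), Hoxd4 (-1.09, SE 0.21, adjusted p 0.0391) and Hoxb3 (-0.60, SE 0.08, adjusted p 0.0211) were lower in AkCk. Hoxc8 was higher, at 0.81 (SE 0.12, adjusted p by edgeR 0.0222), where it had 0.12 with AkCh_20 in the fit. That fit left 2 AkCh libraries, both female, against 3 AkCk libraries.

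**Figure D4:**
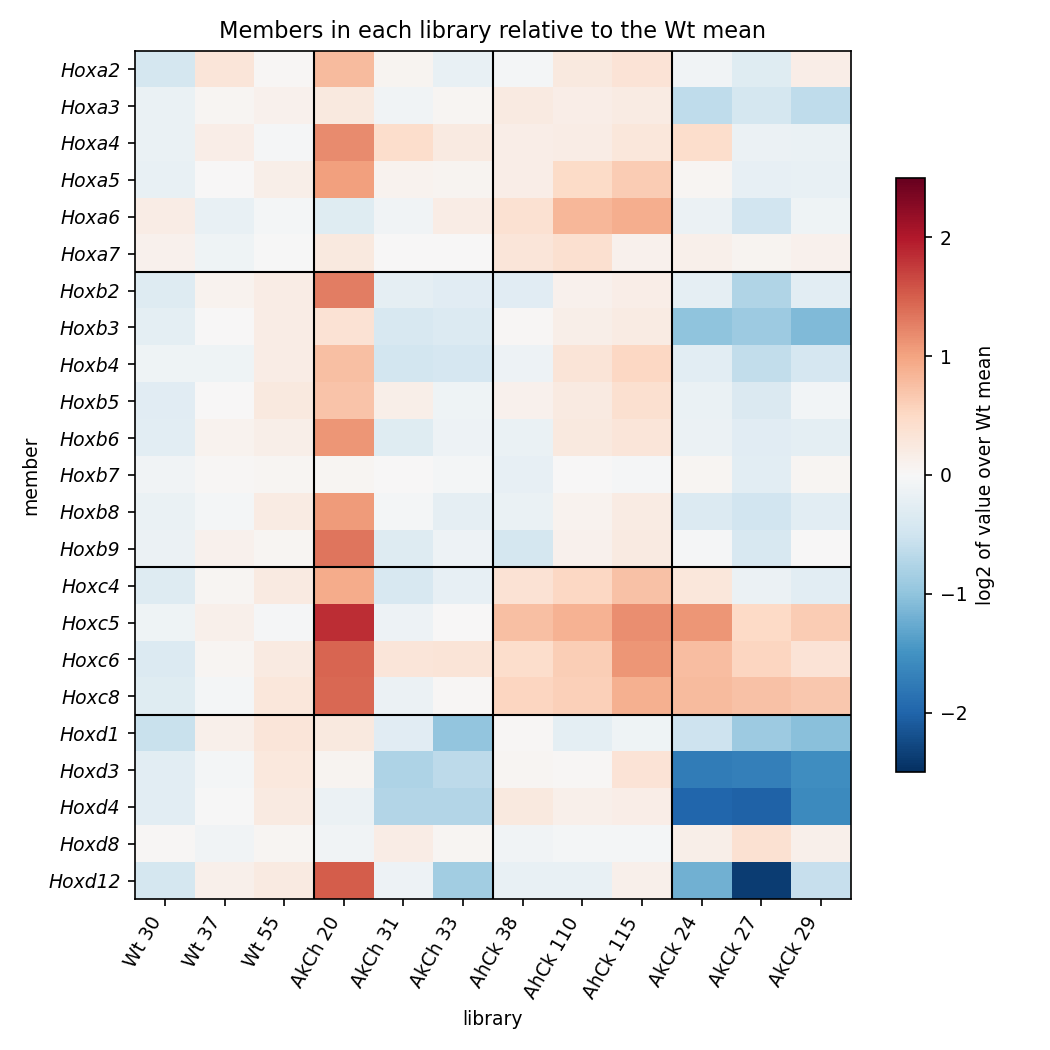
Level of the 23 members tested in every comparison, as log2 of the value in each library over the Wt mean, by cluster. AkCh_20 is the highest library for 16 members, and the AkCk libraries are lowest for Hoxd3, Hoxd4, Hoxb3 and Hoxa3.

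The log2 fold changes of a few members are set side by side here, with Wt shared by all 3 comparisons. Hoxd3 had -0.41 in AkCh (-0.72 without AkCh_20), 0.16 in AhCk and -1.67 in AkCk. Hoxc8 had 0.63 in AkCh, 0.69 in AhCk and 0.73 in AkCk, the value in AkCh being -0.06 without AkCh_20. Hoxb3 had -0.09 in AkCh (-0.38 without AkCh_20), 0.14 in AhCk and -1.0 in AkCk. Hoxb9 of the same cluster had 0.50 in AkCh, which turned to -0.23 without AkCh_20, 0.01 in AhCk and -0.13 in AkCk. Summed over all 29 members, the level was 561 ± 57.6 CPM in Wt, 667 ± 272 CPM in AkCh, 605 ± 67.1 CPM in AhCk and 483 ± 22.4 CPM in AkCk (SD, n = 3). The AkCh sum was 981 CPM in AkCh_20 and 514 and 506 CPM in AkCh_31 and AkCh_33, the last pair within the Wt range of 501 to 616 CPM.

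Cell type markers moved in the same comparison. In AkCk against Wt, 7.40% of all genes passed the threshold as lower and 6.31% as higher. Of 10 cap mesenchyme markers 5 passed as lower and none as higher. By direction 9 had log2 fold changes below 0 and 1 above. Their sum was 423, 532 and 565 CPM in Wt and 254, 223 and 387 CPM in AkCk, with Itga8 the most abundant. Of 10 ureteric bud and collecting duct markers 5 passed as lower and none as higher, with 8 below 0 and 2 above. Their sums were 1317, 1106 and 1221 CPM in Wt and 1038, 1151 and 1049 CPM in AkCk, with Tfcp2l1 the most abundant. Of 11 stromal markers 8 passed as higher and none as lower, with 9 above 0 and 2 below. Their sums were 3579, 3754 and 3560 CPM in Wt and 8854, 10727 and 9720 CPM in AkCk, with Col3a1 the most abundant. All 8 nephron markers had log2 fold changes above 0, with a median of 0.59, and 2 of them passed. Their sums were 3717, 2525 and 2319 CPM in Wt and 3979, 5204 and 3372 CPM in AkCk. Lrp2 had the highest mean of that list in both groups, but was not the highest in every library. Of 7 smooth muscle and ureter markers 4 passed as higher and none as lower, with 6 above 0 and 1 below. Their sums were 559, 648 and 557 CPM in Wt and 825, 934 and 807 CPM in AkCk, with Acta2 the most abundant. Liver and skeletal muscle markers were low. Liver markers summed to 4.75, 5.10 and 9.33 CPM in Wt and 25.6, 32.6 and 12.5 CPM in AkCk (3 of 7 passed as higher). Alb was the most abundant liver marker over all libraries together, but Ttr read higher than Alb in every Wt library and in AkCk_29. Skeletal muscle markers summed to 4.08, 4.20 and 9.21 CPM in Wt and 15.1, 16.0 and 6.90 CPM in AkCk (2 of 8 passed as higher). Tnnt3 was the most abundant of these over all libraries together, but not in any AkCk library. In AkCh the stromal sums were 5136, 4902 and 3858 CPM, and those in AhCk were 4418, 5440 and 5863 CPM. In AhCk against Wt 4 of 11 stromal markers passed as higher, against 0.836% of all genes. The part of these cell types in the differences of the members was not tested. None of the listed markers of these 7 cell types was at 0 in all libraries.

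Of the remaining lists, 5 of the 6 Schwann cell and ganglion markers were tested in AkCk against Wt, and 2 passed as higher and none as lower. The 6 markers summed to 10.6 to 12.8 CPM in AkCk and 6.05 to 7.37 CPM in Wt. No marker of the adrenal, gonad, cartilage and vertebra, gut, erythroid or sex lists passed in that comparison. Tested there were 4 of 9 adrenal, 3 of 7 gonad, 5 of 5 cartilage and vertebra, 2 of 4 gut, 4 of 5 erythroid and 4 of 5 sex markers. Erythroid markers summed to 538 to 1357 CPM in Wt, 554 to 1473 CPM in AkCh and 1138 to 1522 CPM in AkCk. In AhCk the erythroid sums ran from 518 to 5107 CPM, with AhCk_115 the highest. The 9 adrenal markers, with Star the most abundant, summed to 15 CPM in AkCk_29 and to 5.22 to 6.85 CPM in the other 11 libraries. In AkCk_29 Dbh read 1.59 CPM, Th 1.37 CPM and Cyp11b1 0.742 CPM, each the highest of the 12 libraries. Without AkCk_29, Hoxd3, Hoxd4 and Hoxb3 were still called in AkCk against Wt, and Hoxa3, Hoxc8 and Hoxc5 were not (adjusted p by edgeR 0.0586, 0.0507 and 0.0626), while Hoxd12 was called in addition. The gut marker Fabp2 was at 0 in all 12 libraries.

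Of the proteins that bind DNA together with Hox proteins, none of 9 cofactor genes (the Pbx, Meis and Pknox families) passed in AkCk against Wt, and 2 had an unadjusted p below 0.05, against 32.4% of all genes. Their median log2 fold change was -0.08. Among 24 genes listed as regulators of Hox clusters, 22 were tested in AkCk against Wt. Of these 7 passed as lower (7.40% of all genes) and none as higher (6.31%). By direction 18 were below 0 and 4 above, with a median log2 fold change of -0.20, beside -0.01 for all genes. Kmt2a, which encodes a histone H3 lysine 4 methyltransferase that maintains Hox transcription, stood at 88.7, 72.3, 82.5 CPM in Wt, 54.3, 77.1, 77.9 CPM in AkCh, 79.3, 118, 106 CPM in AhCk and 35.1, 47.7, 38.3 CPM in AkCk. Its AkCk libraries were the lowest 3 of the 12, at a log2 fold change of -1.01 (SE 0.13, adjusted p by edgeR 0.00506), and this call held in all 9 alternatives and without each library in turn. The related Kmt2b (-0.51) and Kmt2d (-0.58), the demethylase gene Kdm6b (-0.24), the Polycomb genes Ezh2 (-0.55) and Eed (-0.42), and Ctcf (-0.30) were the other 6, with adjusted p by edgeR of 0.00699 to 0.0493. Kmt2b was lost in 2 of 9 alternatives and kept its call without each library in turn, Kmt2d was lost without Wt_55 (adjusted p by edgeR 0.0501) or AkCk_24 (0.0577), and Kdm6b without each library in turn. Eed was lost without Wt_37 (adjusted p by edgeR 0.0916), Wt_55 (0.0836) or AkCk_24 (0.0707). Ezh2 and Ctcf each kept their call without Wt_30 and lost it without any other library, with adjusted p by edgeR up to 0.129 and 0.155. Of the 9 alternatives, 4 ended the Kmt2d call, 6 that of Kdm6b, 4 that of Ezh2, 2 that of Eed and 5 that of Ctcf. In AhCk against Wt, Kdm6b was higher (0.42, adjusted p by edgeR 0.0344) and Bmi1 (-0.34, adjusted p 0.0344) and Rnf2 (-0.44, adjusted p 0.016) were lower, and all 3 calls were lost after correction for GC content and exon length (adjusted p 0.202, 0.26 and 0.208), with log2 fold changes of 0.23, -0.17 and -0.21. In all, Kdm6b passed in 5 of 7 alternatives, and Bmi1 and Rnf2 in 4 of 7 each. The Kdm6b and Rnf2 calls were lost without Wt_37 (adjusted p by edgeR 0.191 and 0.0893), Wt_55 (0.148 and 0.094), AhCk_110 (0.147 and 0.091) or AhCk_115 (0.102 and 0.0754). The Bmi1 call was lost without each library but Wt_30 (adjusted p by edgeR 0.0512 to 0.186). In AkCh against Wt and AkCk against AkCh, edgeR called no gene of either list, and 1 and 6 of the 22 regulators had an unadjusted p below 0.05, against 2.28% and 11.3% of all genes.

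Of 17 noncoding RNAs listed for the Hox clusters, 8 were found in the table and 3 were tested in AkCk against Wt. Hotair, a long noncoding RNA transcribed opposite to the HoxC genes between Hoxc11 and Hoxc12, stood at 0.371, 0.323, 0.272 CPM in Wt, 0.965, 0.265, 0.0791 CPM in AkCh, 0.294, 0.450, 0.332 CPM in AhCk and 0, 0.0509, 0.0824 CPM in AkCk. The AkCk values lay at or under the floor of 3 counts per library (0.0764 to 0.0824 CPM), and the call by edgeR (adjusted p 0.0361) was lost without every library but AkCk_29, with values up to 0.116, and in 4 of the 8 alternatives that gave an adjusted p, up to 0.313. Hoxa11os, the antisense RNA of Hoxa11, stood at 26.4 to 35.5 CPM in Wt and 25.6 to 36.8 CPM in AkCk. The flanking homeobox genes Evx1 and Evx2 had no count in any library.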

How the data were processed

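The deposited expected counts of 36186 genes in 12 libraries are, per the methods of the study, from paired-end reads aligned by the authors to mm10, without reads of more than 1 position, and quantified in Strand NGS. The deposited log2 values were normalized between libraries by the authors and centred per gene. Counts were rounded to whole numbers. Each comparison was fitted on its 6 libraries with edgeR 4.0.16 in R 4.3.3: TMM factors, filterByExpr defaults (minimum count 10, minimum total 15), glmQLFit and glmQLFTest, adjustment over all genes tested, threshold 0.05. The scripts were tested on simulated data. The alternatives were no filter, scaling by RLE or by library size alone, DESeq2 1.42.0, fits of all 12 or of the 9 libraries of run1008, a covariate of Xist log2 CPM (prior count 0.5), a GC and exon length correction over 20 bins, limma 3.58.1 on the deposited log2 values, and leaving out each library. The study filtered genes with a test without a term for replicate spread, which was not used here. Symbols listed more than once (92) were kept as separate genes. CPM and RPKM were computed here from the counts, and RPKM used exon lengths of GENCODE M21, not the gene model of the counts. SE and 95% intervals of log2 fold changes were taken from the edgeR test statistic and its degrees of freedom, and floors of 3 counts cover counting error only. No 2 libraries of the same group agreed within sampling noise, and the animals behind them were taken as separate from their numbers. Python 3.11.15 and matplotlib 3.10.9 drew the figures.

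Members and lists were chosen with earlier results of these data known. Full statistics go to members with an adjusted p below 0.05 in any of the 4 comparisons, and values per library to those, to the neighbours of the mutated genes (Hoxa7, Hoxa13, Hoxc8, Hoxc12) and to Hoxb9. Hoxb4, Hoxc4, Hoxc6, Hoxd1, Hoxd8, Hoxd12 and Hoxd13 are given more fully than that rule asks and were chosen after their values were seen. Genes of the lists are named where past the threshold, and Hoxa11os, Dbh, Th and Cyp11b1 were also chosen after their values were seen.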

Additional observations from a re-analysis of the deposited data

How the results depend on the processing

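Of the 7 Hox genes followed in every fit (Hoxd3, Hoxd4, Hoxb3, Hoxa3, Hoxc8, Hoxc5 and Hoxc6), none reversed in AkCk against Wt, where 79 values over all settings kept direction and side of the threshold, 24 were no longer past it and 2 newly passed. The number of members past the threshold in AkCk against Wt was 3 in the fit of the 9 libraries of run1008 (4.30% of all genes) and 3 to 8 when each library was left out (3.35% to 21.1%). In AhCk against Wt it was 5 by DESeq2 (8.23% of all genes), 0 with all 12 libraries in the fit (0.916%), 0 after GC content and exon length correction (0.767%) and 0 by limma (0.654%), and 0 to 1 leaving out each library (0.373% to 3.39%). In AkCk against AkCh it was 4 by DESeq2 (3.51%), 4 with all 12 libraries (3.32%), 1 with the 9 libraries of run1008 (1.13%) and 4 with Xist as a covariate (4.47%), and 0 to 4 leaving out each library (0% to 4.30%). In AkCh against Wt it was 0 in every setting. The log2 fold change in AkCh against Wt reversed for Hoxa3 with library size only (-0.01) and for Hoxb3 with the Xist covariate (0.16), and in AkCk against AkCh for Hoxc5 with the Xist covariate (0.08) and by limma (0.19). Leaving out each library, it ran in AkCh against Wt from -0.38 to 0.05 for Hoxb3, -0.02 to 0.15 for Hoxa3, -0.06 to 0.90 for Hoxc8 and -0.07 to 1.19 for Hoxc5, and in AkCk against AkCh from -0.16 to 0.81 for Hoxc8, -0.41 to 0.86 for Hoxc5 and -0.42 to 0.27 for Hoxc6. The upper or lower end farthest from the full fit was the fit without AkCh_20. The cause was not tested. Scaling by library size only called 742 genes higher and 1649 lower in AkCk against Wt, against 999 and 1172 with TMM. DESeq2 gave no adjusted p for Hotair. No paired analysis was possible because the groups share no replicate numbers. With 3 libraries per group, genotype tied to sequencing run for AhCk and sex unequal between groups, small differences cannot be resolved.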
